A study of Mus musculus with 36 samples.

Results

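The cytosolic ribosomal protein genes encode the proteins of the large (Rpl) and small (Rps) subunits of the ribosome that translates nuclear mRNAs. They were selected by symbol: a probe set was taken if its annotation named 1 gene and that symbol began with Rpl or Rps and a digit, or was Rplp0, Rplp1, Rplp2 or Rpsa, with pseudogene symbols and the S6 kinase genes (Rps6k) left out. The rule found 100 of 22690 probe sets, which stood for 48 of the 12393 genes that a 1-gene probe set named. After a filter that left out the 40% of genes with the lowest mean signal, 47 of the 48 remained among 7436 tested genes. Of these, 42 were canonical subunits (22 of the large and 20 of the small subunit) and 5 were paralogues, which are second copies beside a canonical gene: Rpl39l, Rps4l, Rpl22l1, Rps27l and Rpl7l1. The paralogue Rpl3l, best known from striated muscle, was left out by the filter, at a mean signal of 33.7 in wild type and 35.3 in PKBa-/- (SD 3.43 and 4.05, n = 18 arrays each).

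The arrays were made from mouse embryonic fibroblasts (MEFs), cells grown out of the minced bodies of 13.5-day embryos from crosses of heterozygous PKBa parents, and used between passages 15 and 20. Wild type cells and cells that lack PKBa (PKBa-/-), the kinase encoded by Akt1, were both kept in DMEM with 10% serum, and the series title calls all of them DMEM treated; the shared protocol also describes a cocktail that induces adipocytes, without naming the arrays it was used on. RNA was taken at times 0, 2, 6, 24 and 48, with no unit of time in the labels. Each genotype had 4 arrays per time and 2 at time 2, so 36 arrays in all. The labels do not say how many embryos or cell lines stood behind a genotype, so genotype and line cannot be told apart, and p-values measure only the spread between these arrays. Replicates 1 and 2 of a group resembled each other, as did replicates 3 and 4: arrays correlated at 0.982 to 0.9972 within such a pair and at 0.9416 to 0.9893 across pairs of 1 group. Each pair was therefore averaged and counted as 1 replicate in every test. Akt1 itself read 1117 ± 183 in wild type and 74.4 ± 14.3 in PKBa-/- (SD, n = 18 arrays each). Of 13 fibroblast markers, 12 were on the array, and their summed signal ran from 55800 to 71500 in wild type and from 68500 to 80400 in PKBa-/-. Of these, 8 were higher and 3 lower in PKBa-/-, with Dcn at 7116 and 767 and Lum at 1171 and 399 (means in wild type and PKBa-/-). Of 5 mesothelial markers, 4 were on the array, and their summed signal ran from 4420 to 7370 in wild type and from 178 to 248 in PKBa-/-, with none at 0.

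Nearly all ribosomal proteins are needed in equal numbers, and their mRNAs are among the most abundant in a growing cell. Most carry a run of pyrimidines at their 5′ end, the TOP motif, through which mTORC1, a kinase complex downstream of PKB, raises their translation rather than their mRNA level. Ribosome assembly factors and rRNA synthesis are instead known to respond in mRNA level to growth signals through the transcription factor MYC.

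The start regions of 6 members that recur in the results are shown. They are those of Rpl39l, its canonical partner Rpl39 and 4 canonical genes that passed higher in PKBa-/-. These 4 are the ones with several tested probe sets, each of which passed too. No expression difference was related to these regions. Each region runs from 80 bases before to 20 bases after the start in RefSeq (GRCm38.p6), 5′ to 3′ on the strand of the gene. For Rpl39l the start used was base 10170228, while its RefSeq gene entry begins at base 10170197, and its run depends on that choice. Capitals mark the longest run of C and T that reaches into the stretch from 10 bases before to 15 bases after the start. Of equally long runs the first is marked.
Rpl39l (chr16:10170148-10170247, plus strand): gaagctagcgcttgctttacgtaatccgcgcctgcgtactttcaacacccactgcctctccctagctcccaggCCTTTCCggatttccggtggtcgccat
Rpl39 (chrX:37085203-37085302, minus strand): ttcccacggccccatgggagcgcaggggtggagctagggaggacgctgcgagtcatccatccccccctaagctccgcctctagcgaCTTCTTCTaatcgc
Rps10 (chr17:27635225-27635324, minus strand): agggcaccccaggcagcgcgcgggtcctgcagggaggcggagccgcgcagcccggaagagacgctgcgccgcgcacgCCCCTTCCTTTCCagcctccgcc
Rps18 (chr17:33955646-33955745, minus strand): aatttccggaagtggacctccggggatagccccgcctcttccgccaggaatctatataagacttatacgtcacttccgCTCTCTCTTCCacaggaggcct
Rps28 (chr17:33824543-33824642, minus strand): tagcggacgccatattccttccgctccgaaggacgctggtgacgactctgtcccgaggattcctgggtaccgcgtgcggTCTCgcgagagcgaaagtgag
Rpl37a (chr1:72711180-72711279, plus strand): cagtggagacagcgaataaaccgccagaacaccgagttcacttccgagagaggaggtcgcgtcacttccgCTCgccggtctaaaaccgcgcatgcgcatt
Rps10, Rps18 and Rps28 carried runs of 13, 11 and 4 pyrimidines across the start, from positions -3, -2 and -1 counted from it. The marked runs of Rpl39l (7 bases, from -7) and Rpl37a (3 bases, from -10) ended before the start. In Rpl37a another run of 3 bases, TCT from -2, crossed the start. The run of Rpl39 (8 bases, from 7) began after the start. RefSeq start regions matched 37 of the 42 canonical genes. A run of 8 or more C and T near the start stood in 19 of them (51.4%), against 17.6% of all 27025 genes in the table and 19.1% of the 6056 tested genes that matched. The letters CCGGAA, searched on both strands of the 300 bases from 250 before to 50 after the start, stood in 25 of 37 canonical genes (67.6%), 33.6% of matched tested genes and 16.7% of all genes in the table. TATAAA, searched the same way, stood in 5 (13.5%), 8.55% and 15.7%. The canonical genes and the matched tested genes both held a median of 23 CG pairs per 300 bases, against 8 over all genes in the RefSeq table. These are descriptions of letters near an annotated start, not of binding or use.

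On the brightest probe set of each gene, the canonical genes differed little between the genotypes. Averaged over the 5 times, 6 of 42 passed (limma, adjusted p under 0.05), all of them higher in PKBa-/-, where 47.4% of all tested genes passed, 26.5% higher and 20.9% lower. Their median log2 difference, PKBa-/- minus wild type on the log2(signal + 32) scale, was 0.02 (0.03 over all tested genes), with a range from -0.15 to 0.27. No canonical gene reached a 2-fold difference, which 5.41% of all tested genes did. By the mean of all probe sets of a gene, 11 of 40 canonical genes passed, where 48.9% of all tested genes did. Whether the brightest probe sets understate differences was not tested. Among the 114 tested genes with a mean log2 value of 12 or more, 42.1% passed. These 114 include 32 canonical genes, of which 5 passed (15.6%). The median 95% interval reached 0.12 to each side, before any adjustment for the number of genes. Differences above that size could therefore still miss the threshold, as that of Rpl14 (0.20) did. With the 36 arrays counted as separate replicates, 20 canonical genes passed, 14 higher and 6 lower, where 65.2% of all tested genes did, and under quantile normalization 5 passed higher and 4 lower, where 51% did. Replicates 3 and 4 had a lower mean log2 value over all tested genes than replicates 1 and 2 in 8 of 8 groups, though no label calls them a batch. With the replicate pair as a block within each genotype, 15 canonical genes passed, 10 higher and 5 lower, where 62.9% of all tested genes did. In replicates 1 and 2 and in replicates 3 and 4 taken alone, the median canonical difference over times 0, 6, 24 and 48 was 0.04 and 0.05.

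**Figure D1:**
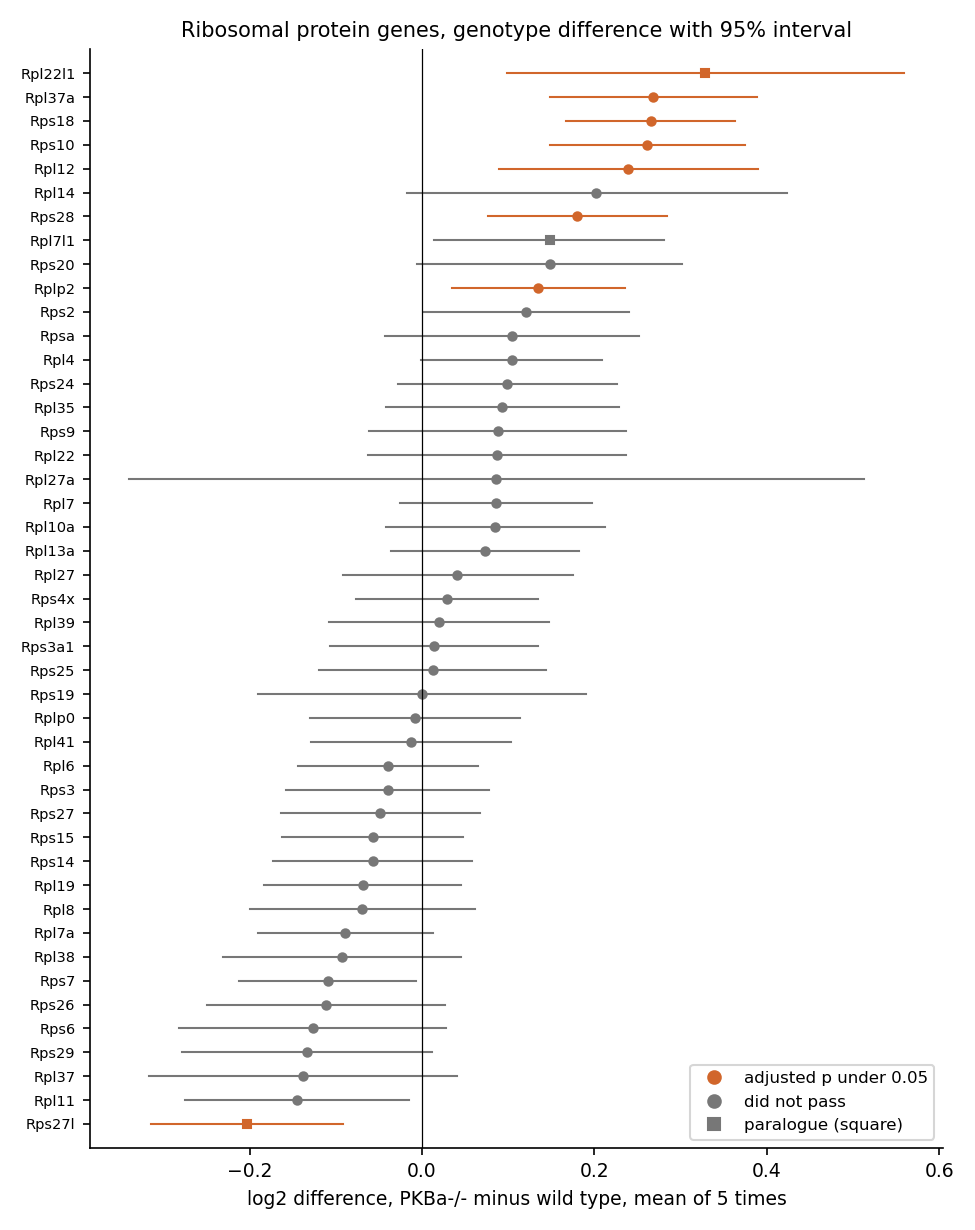
Log2 difference between PKBa-/- and wild type, averaged over the 5 times, for 45 tested ribosomal protein genes (points; squares are paralogues) with 95% intervals (bars) from limma on pair averages; Rpl39l and Rps4l lie outside the axis. The canonical genes lie between -0.15 and 0.27, and the 6 that passed, in orange, are all above 0.

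Of the small subunit proteins, Rps18 lies in the head of the subunit. Its signal in wild type ran from 8973 through a median of 9802 to 11050, and in PKBa-/- from 10900 through 11870 to 12860 (18 arrays each). The ranges met only at their edges. The log2 difference was 0.27 ± 0.05 (SE; limma adjusted p = 0.00042), and it stayed past the threshold under all 44 alternatives. Rps10, a protein of the 40S beak region, ran from 6700 (median 7419) to 8576 in wild type and from 7594 (median 9005) to 9600 in PKBa-/-. It differed by 0.26 ± 0.05 (limma adjusted p = 0.0013). Rps28, a protein near the mRNA exit site, ran from 9841 (median 11240) to 12290 and from 12120 (median 12680) to 13710. Its difference was 0.18 ± 0.05 (limma adjusted p = 0.0078). The highest wild type arrays overlapped the lowest PKBa-/- arrays for both genes.

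Of the large subunit proteins, Rpl37a carries a zinc finger. It ran from 7249 (median 8508) to 10150 in wild type and from 7515 (median 9972) to 13250 in PKBa-/-. The log2 difference was 0.27 ± 0.06 (limma adjusted p = 0.0016). Its difference at time 0 was 0.08 ± 0.11, which did not pass, and at time 48 it was 0.43 ± 0.11 (limma adjusted p = 0.016). Within PKBa-/- cells Rpl37a rose by 0.49 ± 0.11 from time 0 to 48 (limma adjusted p = 0.02). Its 4 arrays at time 0 lay between 7515 and 9915, and those at time 48 between 11680 and 13250, without overlap. The rise missed the threshold without PKBa-/- replicate 1 of time 0 (0.43, adjusted p = 0.05) or replicate 3 (0.40, adjusted p = 0.052). In wild type the same change was 0.15 ± 0.11 and did not pass, and the difference between the 2 changes was 0.34 ± 0.16 (limma adjusted p = 0.45).

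Rplp2, 1 of the acidic proteins of the ribosomal stalk that recruits translation factors, ran from 7246 (median 8040) to 8715 in wild type and from 7909 (median 8774) to 9960 in PKBa-/-. Its difference of 0.14 ± 0.05 (limma adjusted p = 0.029) missed the threshold under quantile normalization (0.10, adjusted p = 0.05) and without PKBa-/- replicate 4 of time 24 (0.13, adjusted p = 0.051). Rplp0, the stalk base, differed by -0.01 ± 0.06, and Rps6, the classic substrate of the S6 kinases, by -0.13 ± 0.07 (limma adjusted p = 0.17). Rpl11, a protein of the 5S particle that can bind MDM2, had the lowest value, -0.15 ± 0.06, and did not pass (limma adjusted p = 0.063). Rps6 was read by a dim probe set, at 287 ± 48.6 in wild type and 259 ± 53.4 in PKBa-/- (SD, n = 18 arrays). By contrast, 32 of the 42 canonical genes had a mean log2 value of 12 or more, a signal of 4064 or more. The level of Rps6 mRNA is therefore uncertain.

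The other 36 canonical genes did not pass. Among the higher values were Rpl14 (0.20 ± 0.10, limma adjusted p = 0.12) and Rps20 (0.15 ± 0.07, limma adjusted p = 0.1). Rpl14 read 144 ± 26.3 in wild type and 172 ± 30.2 in PKBa-/-, also on a dim probe set. At the low end, beside Rpl11 and Rps6, stood Rpl37 (-0.14 ± 0.08), Rps29 (-0.13 ± 0.07), Rps26 (-0.11 ± 0.06), Rps7 (-0.11 ± 0.05), Rpl38 (-0.09 ± 0.06) and Rpl7a (-0.09 ± 0.05). Rpl11 ran from 4879 (median 5681) to 6757 in wild type and from 4465 (median 5160) to 6195 in PKBa-/-, so the genotypes overlapped over most of their range. Rps7, which like Rpl11 can bind MDM2, ran from 7459 (median 8907) to 9988 and from 7395 (median 8059) to 8674. Rps19, the gene most often mutated in Diamond-Blackfan anaemia, read 3554 ± 557 and 3579 ± 409, with a difference of 0.00 ± 0.09. Rpsa, the protein also described as a laminin receptor, read 9240 ± 844 and 10030 ± 800 (0.10 ± 0.07, limma adjusted p = 0.23). Rpl13a, often used as a reference gene, read 8038 ± 437 and 8497 ± 381 (0.07 ± 0.05, limma adjusted p = 0.26) on its brightest probe set. Of its 3 further probe sets, 2 passed higher (0.19 and 0.28, limma adjusted p = 0.034 and 0.039) and the third gave 0.12 (limma adjusted p = 0.061). Rps3, a protein at the mRNA entry site, read 8490 ± 552 and 8337 ± 372 (-0.04 ± 0.05, limma adjusted p = 0.58). Rpl27a had the widest error, 0.09 ± 0.20, on a probe set that read 119 to 376 over the 36 arrays.

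Several of these genes have more than 1 probe set. Ribosomal protein genes have many near-identical pseudogene copies, and probe sets whose names end in x_at or s_at can also read other transcripts, so their values are less certain. The 6 Rps10 probe sets gave differences from 0.16 to 0.33, the 3 tested Rps18 sets from 0.26 to 0.32, the 3 Rps28 sets from 0.16 to 0.20, and the 3 Rpl37a sets from 0.22 to 0.46. All of these passed, higher in PKBa-/-. Over all 78 tested canonical probe sets, 25 passed higher (32.1%) and 0 lower. Of all 12228 tested 1-gene probe sets 43.8% passed, 24.5% higher and 19.3% lower. Of the 36 further probe sets beside a gene's brightest one, 34 had the sign of the brightest. Another 102 probe sets name a ribosomal protein gene together with other loci and were left out by the rule. Of these, 21 passed higher and 4 lower, with a median of 0.05.

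Of the 6 canonical genes that were higher, 3 lie on chromosome 17, a pattern noticed after their values were seen. They are Rps10, Rps18 and Rps28, among 5 canonical genes that RefSeq places there. The others, Rps2 and Rpl10a, differed by 0.12 and 0.09 and did not pass (limma adjusted p = 0.088 and 0.26). On chromosome 17, 240 of 378 tested genes passed higher in PKBa-/- (63.5%), against 24.5% of tested genes on other chromosomes. The median over the 372 tested genes of chromosome 17 outside the ribosomal protein set was 0.27, the highest of 20 chromosomes. Chromosome medians of such other genes ran from -0.16 on chromosome 13 to 0.27, with 0.23 on chromosome 14 and 0.19 on chromosome 8.

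The canonical genes' differences tended to lie on the same side of 0 as the median of their chromosome. Over the 42 genes, the difference and the chromosome median of the other tested genes correlated at r = 0.72 (Spearman's rho = 0.73). Genes on a chromosome share that median, so they are not independent, and the value is given as a description. It was 0.64 over the 37 genes outside chromosome 17. It was 0.63 with replicates 1 and 2 alone, 0.78 with replicates 3 and 4 alone and 0.67 after quantile normalization. Over the 7380 other tested genes the same measure was 0.21, and over the 81 of them with a mean log2 value of 12 or more it was 0.40. Of 23 canonical genes on chromosomes with a median above 0, 20 had a difference above 0 and 3 did not, and the median was 0.09. On chromosomes with a median below 0, 15 of 19 had a difference below 0, and the median was -0.06. The exceptions included Rps20 (0.15) and Rpl22 (0.09) on chromosome 4 and Rpl7a (-0.09) on chromosome 2. The chromosome's part in any single difference was not tested, and DNA was not measured.

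**Figure D2:**
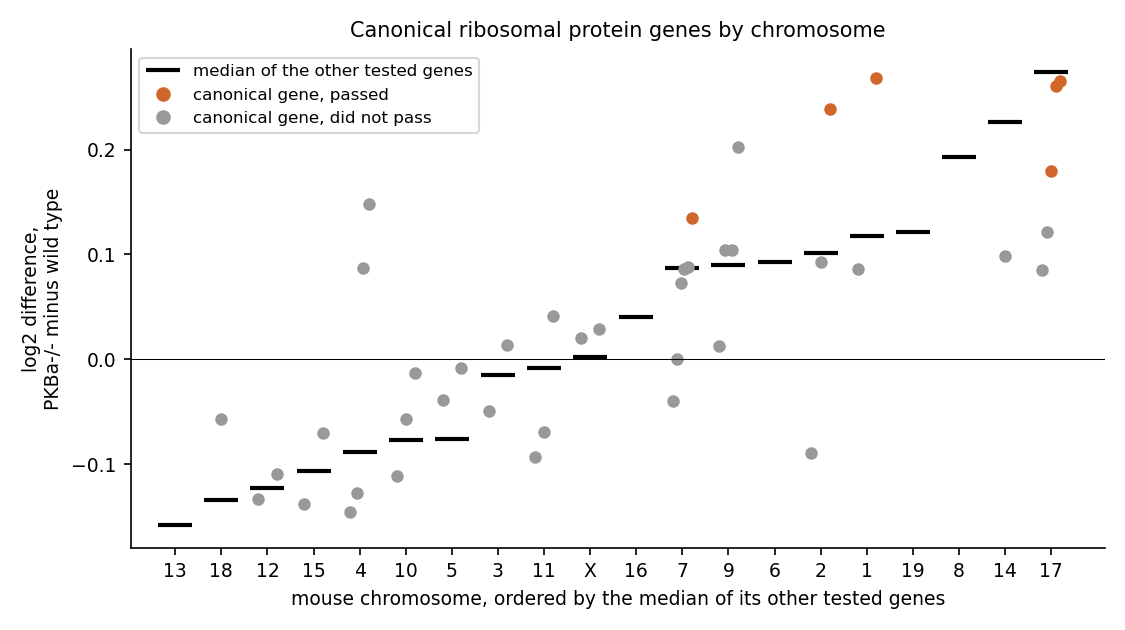
Log2 difference between PKBa-/- and wild type for the 42 canonical genes (points, orange where passed) by chromosome, with the median of the other tested genes of each chromosome (black bars) and chromosomes ordered by it. The 5 genes on chromosome 17, at the right, lie between 0.09 and 0.27 beside a chromosome median of 0.27, and 15 of the 19 genes on chromosomes with medians below 0 lie below 0.

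At single times the canonical genes held few calls. At times 0, 2 and 6, 0 of 42 passed, where 14.8%, 5.78% and 16.5% of all tested genes did. With the arrays as separate replicates 8, 3 and 6 did, where 41.3%, 23.5% and 39.5% of all tested genes did. At time 24, 2 passed, where 20.4% of all tested genes did, and these were Rpl37a (0.35 ± 0.11, limma adjusted p = 0.044) and Rps18 (0.31 ± 0.09, limma adjusted p = 0.033). At time 48 the same 2 genes passed, where 23.2% of all tested genes did (Rps18 0.28 ± 0.09, limma adjusted p = 0.046). With the arrays as separate replicates 9 passed at each of these times, where 42.6% and 46.9% of all tested genes did. The 2 counts moved when single arrays were left out. The count at time 24 fell to 0 without wild type replicate 1 of time 24. It fell to 1 without wild type replicate 3 of time 0, 24 or 48, and without PKBa-/- replicate 1 or 4 of time 0 or replicate 1 or 3 of time 24. The count at time 48 fell to 1 without wild type replicate 4 of time 0, 24 or 48, replicate 3 of time 6, replicate 1 of time 24 or replicate 2 of time 48. It also fell to 1 without PKBa-/- replicate 1 or 3 of time 0, replicate 4 of time 6, replicate 2 or 4 of time 24, or replicate 1 or 4 of time 48. At time 0, 1 gene passed without wild type replicate 3 of time 0, and at time 2, 1 passed without wild type replicate 2 of time 2.

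Over time few canonical genes passed. In wild type, 0 of 42 passed at times 2, 6, 24 or 48 against time 0, where 2.73%, 11.9%, 5.66% and 6.01% of all tested genes did. With the arrays as separate replicates 5 passed at time 6 and 2 at time 24, where 36.3% and 27.1% did. In PKBa-/-, 1, 1, 0 and 1 passed, where 3.39%, 18.4%, 6.15% and 7.45% of all tested genes did. With the arrays as separate replicates 3, 4 and 2 passed at times 6, 24 and 48, where 40.4%, 26.5% and 29.3% did. Each call on pair averages was a rise, of Rpl12 at times 2 and 6 and of Rpl37a at time 48. Leaving out 1 array moved the count at time 24 to 1 (PKBa-/- replicate 2 or 4 of time 0, wild type replicate 3 of time 24). It moved that at time 48 to 0 (PKBa-/- replicate 1 or 3 of time 0) or 2 (replicate 2). Some changes that did not pass were of like size. Rps6 changed by 0.47 ± 0.15 in PKBa-/- (limma adjusted p = 0.075) and by 0.28 ± 0.15 in wild type (limma adjusted p = 0.32) from time 0 to 48. Rpl14 changed by 0.39 ± 0.21 in PKBa-/- from time 0 to 24 (limma adjusted p = 0.34). Both genes were read by dim probe sets. Rpl4, a protein of the exit tunnel, had changes of -0.12 ± 0.10 and -0.09 ± 0.10 in PKBa-/- and -0.17 ± 0.10 and -0.14 ± 0.10 in wild type at times 24 and 48. In no canonical gene did the time course differ past the threshold between the genotypes: 0 of 42 passed the limma F test, 1 of them at an unadjusted p under 0.05, where 1.75% of all tested genes passed. All these comparisons share the arrays of time 0.

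Over the 36 arrays, the log2 values of a canonical gene had a median SD of 0.12, against 0.25 over all tested genes and 0.18 over those with a mean log2 of 12 or more. The 10 group means of a canonical gene spanned a median of 0.26, those of all tested genes 0.68. For tested genes with a mean log2 of 12 or more, 32 canonical ones among them, the median was 0.44. The mean over the 42 genes lay between 11.84 and 12.07 on every array, at 11.93 ± 0.06 in wild type and 11.96 ± 0.05 in PKBa-/- (SD, n = 18 arrays). The mean over all tested genes was 8.86 in wild type and 8.85 in PKBa-/-. The deposited signals are relative within an array. A change in total RNA per cell that all genes share would therefore not show here.

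Genes that build ribosomes, by contrast, held many calls in the comparison of time 6 with time 0. In PKBa-/-, 37 of 53 tested ribosome biogenesis genes rose and 0 fell, with a median of 0.59, where 8.59% of all tested genes rose and 9.78% fell. Among them were Nop56 (1.20 ± 0.15, limma adjusted p = 0.00043), a core protein of box C/D snoRNPs, Ncl (0.62 ± 0.15, limma adjusted p = 0.013), which encodes nucleolin, and Fbl (0.58 ± 0.13, limma adjusted p = 0.0095), the rRNA methyltransferase fibrillarin. Myc rose by 1.28 ± 0.16 (limma adjusted p = 0.00037). The canonical genes had a median of 0.01 in the same comparison. In wild type at time 6, 8 biogenesis genes rose and 0 fell with a list median of 0.23, beside -0.03 for the canonical genes, where 4.22% of all tested genes rose and 7.69% fell. The genotypes' changes to time 6 differed past the threshold in 1 of the 53 biogenesis genes, with a median of 0.34. At time 0 the list median was -0.14, PKBa-/- minus wild type, with 14 of 53 genes above 0. Of 74 mitochondrial ribosomal protein genes, 10 rose in PKBa-/- at time 6 with a median of 0.14. Of 11 elongation factor genes 4 rose (median 0.28), and of 35 initiation factor genes 4 rose and 2 fell (median 0.13). Averaged over the times, where 26.5% of all tested genes were higher and 20.9% lower, 19 biogenesis genes were higher and 2 lower in PKBa-/- (median 0.13). The counts for the other lists were 16 and 11 of 74 mitochondrial ribosomal, 1 and 3 of 11 elongation factor, 8 and 7 of 35 initiation factor, and 7 and 4 of 18 S6 kinase and mTORC1 genes. Of 10 MYC family genes 3 were higher and 1 lower, and of 10 p53 and 5S particle partner genes, the member Rps27l among them, 0 were higher and 7 lower. Of 17 other subunit and TOP mRNA genes 2 were higher and 3 lower. Among them Fau, which encodes a small subunit protein outside the symbol rule, was higher by 0.18 ± 0.05 (limma adjusted p = 0.01).

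**Figure D3:**
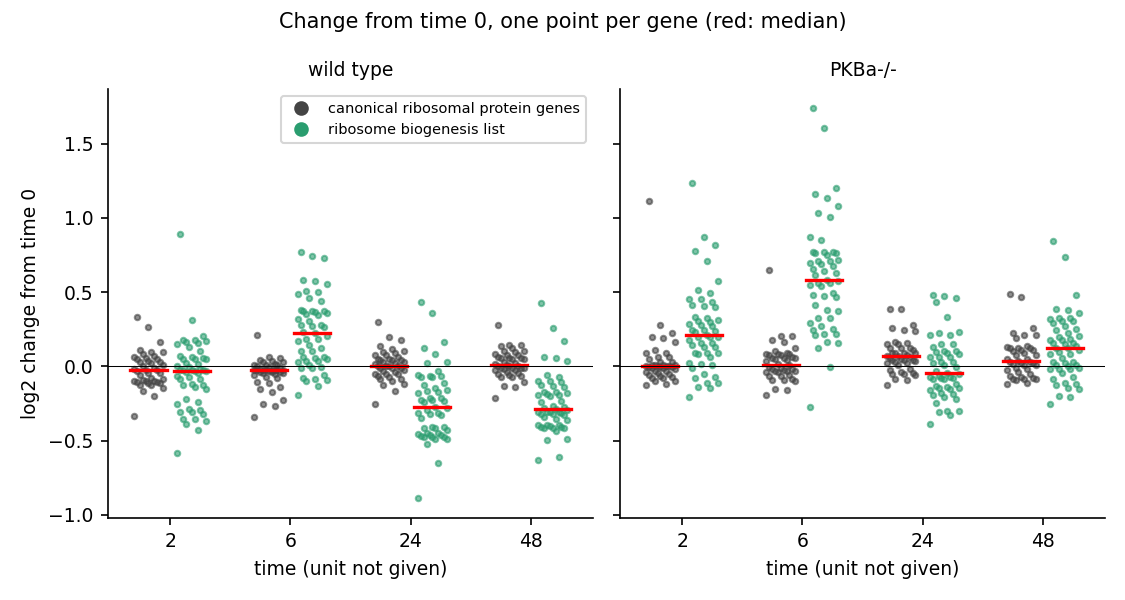
Log2 change from time 0 in wild type (left) and PKBa-/- (right) for the 42 canonical ribosomal protein genes (grey) and the 53 tested ribosome biogenesis genes (green), 1 point per gene, medians in red. The grey medians stay between -0.03 and 0.07 at all times, and the green median reaches 0.59 at time 6 in PKBa-/-; the highest grey points at times 2 and 6 in PKBa-/- are Rpl12.

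Rpl12, a large subunit protein of the stalk base, stood apart, on a single probe set. Its 4 PKBa-/- arrays at time 0 read 199.8, 236, 203 and 224, and the 2 at time 2 read 524 and 484. At time 6 they read 404, 396, 294 and 340, and at time 24 231, 238, 217 and 291. The time 2 and time 6 arrays thus all lay above those of time 0. Rpl12 rose by 1.12 ± 0.17 to time 2 (limma adjusted p = 0.0034) and by 0.65 ± 0.14 to time 6 (limma adjusted p = 0.008). In wild type its changes were 0.33 ± 0.17 and 0.21 ± 0.14, which did not pass, and the difference between the changes did not pass either (limma F test, adjusted p = 0.47). The rise to time 6 was 0.80 in replicates 1 and 2 and 0.51 in replicates 3 and 4. Averaged over the times Rpl12 was higher in PKBa-/- by 0.24 ± 0.07 (limma adjusted p = 0.013). That difference rested on replicates 1 and 2, which alone hold time 2: over times 0, 6, 24 and 48 it was 0.26 in them and 0.02 in replicates 3 and 4. Another pair of probe sets names Rpl12 together with other loci and had mean signals of 6680 and 7200. Their changes in PKBa-/- were 0.04 and -0.09 to time 2 and 0.17 and 0.13 to time 6, outside the test. The rise to time 2 was thus seen on the dim probe set and not on the bright pair.

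Dim second probe sets of 2 other canonical genes also rose at times 2 and 6 in PKBa-/-, and were picked out after their values were seen. For Rps24, whose transcripts end in several alternative ways, the dim probe set read 202 ± 13.5 at time 0 in PKBa-/- (SD, n = 4 arrays). It read 446 ± 49.3 at time 2 (n = 2) and 367 ± 15.8 at time 6 (n = 4). The rise to time 2 was 1.03 ± 0.21 (limma adjusted p = 0.024) and to time 6 0.77 ± 0.17 (limma adjusted p = 0.011), where 2.42% and 15.2% of all tested probe sets passed. In wild type it read 169 ± 20.9, 196 ± 29 and 165 ± 15.5 at these times, and neither change passed, where 2.08% and 9.67% of all tested probe sets did. The changes of the genotypes differed by 0.85 ± 0.30 to time 2 and 0.80 ± 0.24 to time 6, which did not pass (limma adjusted p = 1 and 0.26). Averaged over the times, this probe set was higher in PKBa-/- by 0.80 ± 0.08 (limma adjusted p = 1.1e-05), while the difference at time 0 was 0.22 ± 0.17 and did not pass, where 12.8% of all tested probe sets did. Of the 4 brighter tested Rps24 probe sets, 2 also passed higher, with 0.22 and 0.27 (limma adjusted p = 0.031 and 0.027), and 2, the brightest among them, did not, with 0.18 and 0.10.

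For Rps9, the dim probe set was near the filter level, and read 90.7 ± 12.2 at time 0, 178 ± 10.8 at time 2 and 147 ± 6.23 at time 6 in PKBa-/-. It rose by 0.78 ± 0.17 (limma adjusted p = 0.036) and 0.55 ± 0.14 (limma adjusted p = 0.021). In wild type its changes were 0.40 ± 0.17 and 0.22 ± 0.14 and did not pass. The brightest Rps9 probe set read 4390 ± 169, 4590 ± 88.6 and 4280 ± 279 on the same arrays. Rpl22 followed another course. Its second probe set read 470 ± 87.7 at time 0 and 928 ± 101 at time 48 in PKBa-/-, a rise of 0.95 ± 0.18 (limma adjusted p = 0.0078, where 6.24% of all tested probe sets passed). In wild type its change was 0.25 ± 0.18 and did not pass (5.41% of all tested probe sets did), and the genotypes' changes differed by 0.70 ± 0.25 (limma adjusted p = 0.32). The brightest Rpl22 probe set read 1210 ± 208 and 1100 ± 73.2 at the 2 times in PKBa-/-. Which part of a transcript each probe set reads was not tested.

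**Figure D4:**
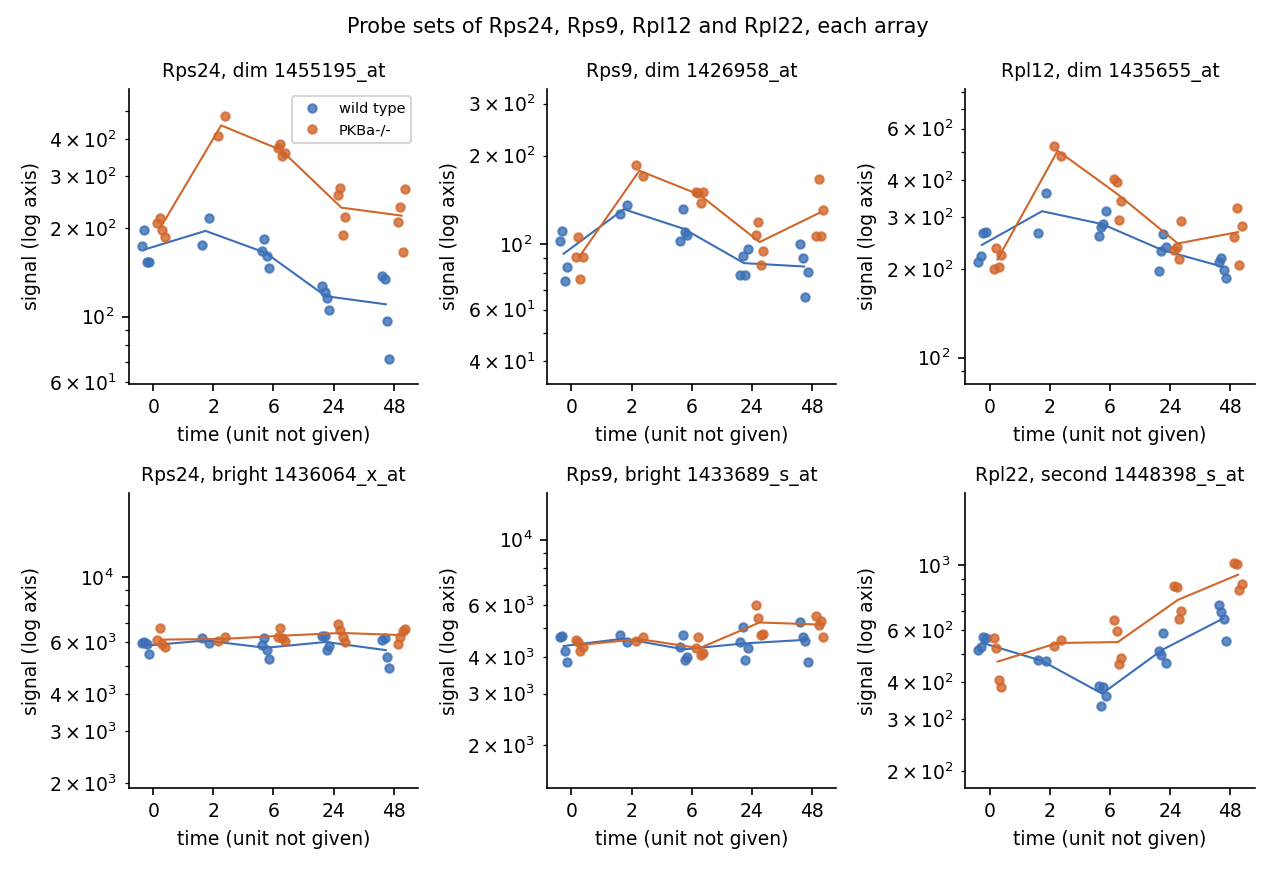
Array signal (log axis) against time for 6 probe sets of Rps24, Rps9, Rpl12 and Rpl22, with wild type in blue and PKBa-/- in orange; points are arrays and lines join group means. The dim probe sets in the top row peak at time 2 in PKBa-/- (446, 178 and 504), the bright Rps24 and Rps9 probe sets below them lie flat, and the second Rpl22 probe set climbs to 928 at time 48.

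Of the tested ribosomal protein genes, Rpl39l and Rps4l differed by more than 2-fold, in opposite directions. Rpl39l, a copy of Rpl39 best known from the testis, was close to the low end of the signals in wild type and bright in PKBa-/-. Its 4 wild type arrays at time 0 read 57.3, 55.7, 57.5 and 50.8, and its 4 PKBa-/- arrays 1049, 1553, 1137 and 907. At time 48 the wild type arrays read 67.9, 67.2, 65.2 and 68.1, and the PKBa-/- arrays 1142, 1544, 1275 and 1147. Over all times wild type ran from 41.3 to 75.2 and PKBa-/- from 907 to 2048, without overlap at any time. All 18 wild type arrays read below 123, the signal at which the filter lay, so the gene passed the filter through PKBa-/-. The values used carry no detection calls, and in wild type a low level and no expression cannot be told apart. Set against the filter signal instead of the wild type value, Rpl39l was at least 8.56-fold higher in PKBa-/- on the log2(signal + 32) scale. That bound was not tested. Mean signals were 59.4 ± 9.35 in wild type and 1308 ± 289 in PKBa-/- (SD, n = 18 arrays). The fit used the wild type values as they stood and gave a log2 difference of 3.87 (limma adjusted p = 5.9e-12), which passed at each of the 5 times. Because the filter was passed through PKBa-/- alone, these calls are given as a description.

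Rps4l, a copy of Rps4x that RefSeq classes as a transcribed pseudogene on chromosome 6, went the other way. Its 4 wild type arrays at time 0 read 639, 679, 1114 and 916, and its 4 PKBa-/- arrays 49.7, 60.2, 71.2 and 49.5. At time 48 they read 1371, 1415, 1348 and 1315 against 82.9, 65.8, 88.4 and 60.1. Over all times wild type ran from 639 to 1549 and PKBa-/- from 42.8 to 113, again without overlap. All 18 PKBa-/- arrays read below the filter signal of 123, so Rps4l passed the filter through wild type, and the same limit holds. Against the filter signal it was at least 6.68-fold lower in PKBa-/-, a bound that was not tested. Mean signals were 1098 ± 320 in wild type and 67.9 ± 20.1 in PKBa-/- (SD, n = 18 arrays). The fit used the PKBa-/- values as they stood and gave a log2 difference of -3.42 (limma adjusted p = 2e-10), which passed at each of the 5 times. Because the filter was passed through wild type alone, these calls are given as a description. Within wild type the change from time 0 to 48 was 0.72 ± 0.24 (limma adjusted p = 0.11), with 1.04 in replicates 1 and 2 and 0.39 in replicates 3 and 4. RNA with Rps4l sequence was measured, not protein.

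Their canonical partners did not pass. Rpl39 read 205 ± 13.7 in wild type and 207 ± 18.4 in PKBa-/- (SD, n = 18 arrays; log2 difference 0.02 ± 0.06, interval -0.11 to 0.15). A brighter probe set that names Rpl39 and 1 other locus had a mean signal of 6140 and gave 0.07, outside the test. The dim Rpl39 probe set is therefore no measure of the level of Rpl39 beside Rpl39l. Rps4x read 7312 ± 368 and 7489 ± 438 (0.03 ± 0.05, interval -0.08 to 0.14). The 18 arrays of each genotype lay apart for Rpl39l and Rps4l and for 0 of the 42 canonical genes, where 5.72% of all tested genes lay apart. The chromosomes of Rpl39l (16) and Rps4l (6) had medians of 0.04 and 0.09 over their other tested genes. The summed mesothelial markers given above also lay apart between the genotypes. So did those of endothelial cells (6 of 6 on the array, 558 to 1740 in wild type and 329 to 547 in PKBa-/-) and of adipocytes (5 of 7, 2430 to 5740 and 899 to 2040), with none at 0. Single genes carried both of these sums. Among endothelial markers Kdr had means of 924 and 234.5, but Pecam1 50.7 and 50.4 and Cdh5 52.5 and 59.5. Among adipocyte markers Lpl had means of 3376 and 924, but Cebpa 200 and 272 and Pparg 49.4 and 60.9. The part of these markers in either difference was not tested.

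**Figure D5:**
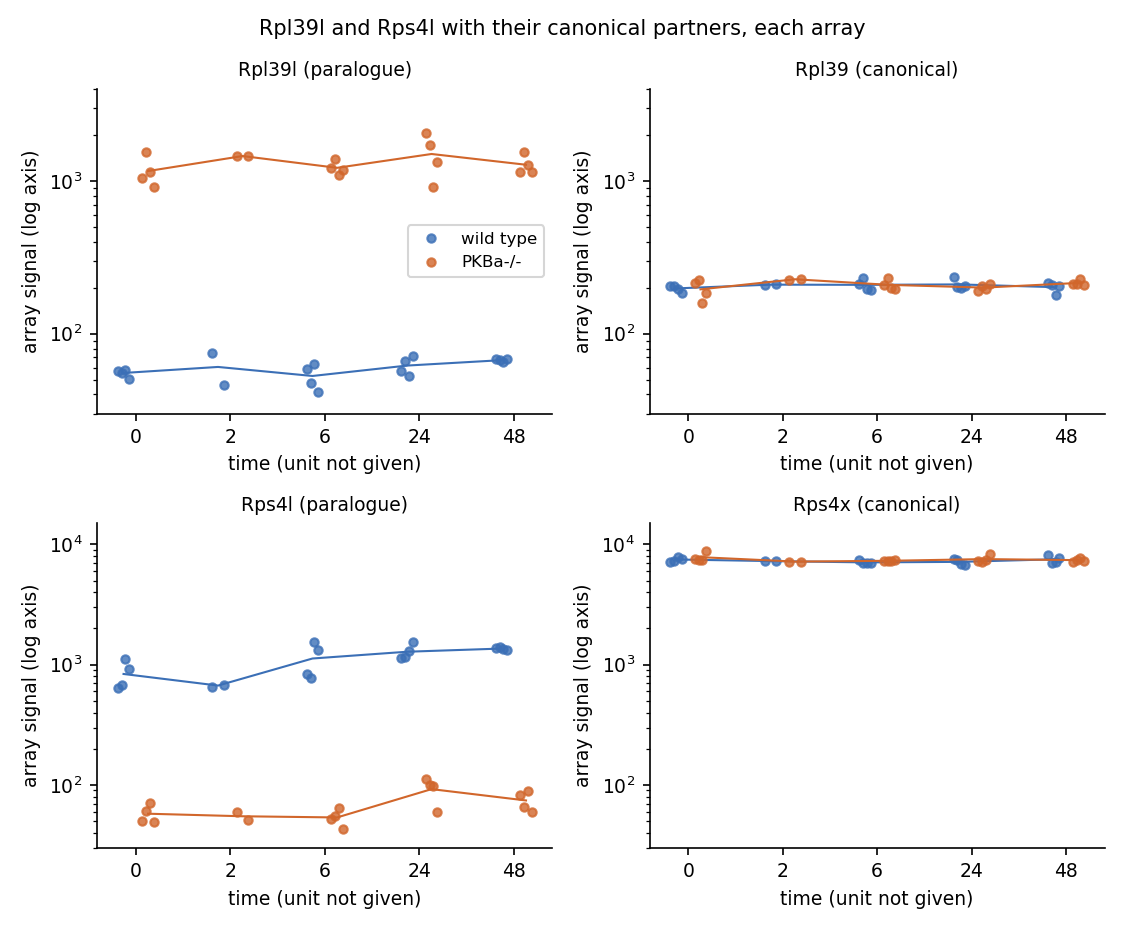
Array signal (log axis) of the paralogues Rpl39l and Rps4l (left) and their canonical partners Rpl39 and Rps4x (right) against time, wild type in blue and PKBa-/- in orange; points are arrays and lines join group means. Rpl39l lies at 41.3 to 75.2 in wild type and 907 to 2048 in PKBa-/-, Rps4l at 639 to 1549 and 42.8 to 113, and the partners' ranges over all times overlap between the genotypes.

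The other paralogues differed less. Rps27l, a p53 target gene beside Rps27, ran from 1452 (median 1942) to 2384 in wild type and from 1302 (median 1779) to 2089 in PKBa-/-. It was lower by 0.20 ± 0.05 on the log2 scale (-0.20, limma adjusted p = 0.0057), and its 3 probe sets gave -0.19 to -0.28, all passed. By time the difference was -0.33, -0.34, -0.11, 0.10 and -0.33 at times 0, 2, 6, 24 and 48. Its sign was thus the other way at time 24, where wild type read 1805 ± 121 and PKBa-/- 1933 ± 161 (SD, n = 4 arrays). The value at time 48 alone passed (limma adjusted p = 0.037). It missed the threshold after median centring, with replicates 3 and 4 alone, and without replicate 3 of time 48 in either genotype, PKBa-/- replicate 3 of time 0 or PKBa-/- replicate 4 of time 6. The genotypes' time courses did not differ past the threshold (limma F test, adjusted p = 0.48). Its partner Rps27 gave -0.05 ± 0.05 on a dim probe set and did not pass. A probe set that names Rps27 and 1 other locus had a mean signal of 7780 and gave 0.04, outside the test. Rpl22l1, the partner of Rpl22, ran from 1331 (median 1859) to 2703 and from 1462 (median 2295) to 3124. It was higher in PKBa-/- by 0.33 ± 0.11 (limma adjusted p = 0.022), but missed the threshold without PKBa-/- replicate 2 of time 0 (0.29, adjusted p = 0.064) and gave 0.15 with replicates 1 and 2 alone. Rpl7l1, a nucleolar relative of Rpl7, differed by 0.15 ± 0.06 and did not pass (limma adjusted p = 0.066). It rose in PKBa-/- from 505 ± 24.4 at time 0 to 759 ± 40 at time 6 (SD, n = 4 arrays each; 0.56 ± 0.13, limma adjusted p = 0.0094), with no overlap between the arrays of the 2 times. In wild type the change was 0.09 ± 0.13 and did not pass, and the genotypes' changes differed by 0.47 ± 0.18 (limma adjusted p = 0.42). Rpl7 had a change of -0.06 ± 0.10 in PKBa-/-, which did not pass.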

How the data were processed

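Total RNA of 36 MEF samples was hybridised to Affymetrix arrays, 1 array per sample. The deposited values are linear signal intensities per probe set, scaled by the authors by a method not given in the sources used here; per the series table, array medians lie between 134 and 145. Genes were named from GEO's platform annotation. From the deposited intensities, log2(signal + 32) was computed, the brightest 1-gene probe set was kept per gene, and the 40% of genes with the lowest mean were left out. Replicates 1 and 2 and replicates 3 and 4 of each group were averaged, giving 18 units, 10 group means and 8 residual degrees of freedom, and fitted over all 7436 genes with limma 3.58.1 (R 4.3.3, eBayes, prior of 4.24 degrees of freedom). P-values were adjusted by Benjamini-Hochberg over all genes within a contrast, with a threshold of 0.05; errors of differences are SE and of signals SD. The fit was tested on simulated data. The number of arrays and the signal over background limit the precision, and no depth applies. Chromosomes and start regions came from RefSeq (GRCm38.p6) by symbol; all 48 genes matched a chromosome. Named genes were the 8 highest and 8 lowest canonical genes averaged over times, the extremes over time (4 each way at time 48, 2 at other times), the paralogues with their partners, preset members such as Rps6 and Rplp0, the 5 smallest F test p-values and the extremes of related lists, of which the text gives a selection; Nop56, Ncl, Fbl and genes outside that rule were chosen after their values were seen. The members and lists were chosen with earlier results of these data known. Alternatives were the scaling, the offset, the filter, the probe set rule, the replicate unit, each replicate pair and each array left out. Replicate numbers were not used to pair the samples in the main fit. Residuals of same-numbered arrays of 1 genotype at different times correlated between -0.212 and 0.719, and between genotypes from -0.116 to 0.324. Replicates 3 and 4 had the lower mean log2 value over all tested genes in 8 of 8 groups. A difference shared by these replicates thus stays in the spread of the main fit.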

Additional observations from a re-analysis of the deposited data

Results flagged for a closer look

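Of 112 groups of 4 arrays examined (14 genes and summaries in 8 groups), 3 held an array that stood farther from its group than Dixon's 95% limit allows, and chance flags about 1 group in 20. Rps6 read 7.97 on the log2(signal + 32) scale on wild type replicate 4 of time 48, where the others read 8.6 to 8.68. Rpl22 read 10.28 on PKBa-/- replicate 3 of time 48, where the others read 10.09 to 10.11. Rpl4 read 13.16 on wild type replicate 1 of time 6, where the others read 13.07 to 13.08.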

How the results depend on the processing

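Counts of canonical genes that passed depended most on what was taken as a replicate. With the 36 arrays as replicates 20 passed on average over the times; 8, 3, 6, 9 and 9 passed at times 0, 2, 6, 24 and 48; 5 at time 6 and 2 at time 24 in wild type; 3, 4 and 2 at times 6, 24 and 48 in PKBa-/-; and 1 in the F test. The fit with a replicate block (the pair as a term within each genotype) gave 15 on average. By time it gave 1, 5, 5 and 7 at times 0, 6, 24 and 48. It gave 2 at time 6 in wild type, 3 and 2 at times 24 and 48 in PKBa-/-, and 1 in the F test. Of all tested genes, 36.2%, 35.9%, 39.3% and 43.3% passed at times 0, 6, 24 and 48 in that fit. The other shares were 32.2% at time 6 in wild type, 21.9% and 25.4% at times 24 and 48 in PKBa-/-, and 14.9% in the F test. The main fit did not use replicate numbers to pair the samples, so these are values of another model. With replicates 1 and 2 alone the counts were 22 on average, 5, 6, 10, 11 and 10 by time, and 4 in the F test. Over time they were 1, 6, 9 and 8 in wild type and 2, 3, 10 and 7 in PKBa-/-. Of all tested genes, 46.9% to 57.5% passed by time and 53.1% in the F test. Over time 32.5% to 52.8% did in wild type and 26.9% to 51.1% in PKBa-/-. With replicates 3 and 4 alone, which have no time 2, the counts were 7, 4, 5 and 9 by time. At times 6, 24 and 48 against time 0 they were 1, 4 and 1 in wild type and 2, 1 and 4 in PKBa-/-. Of all tested genes, 43.5% to 49.3% passed by time, 28.8% to 32.7% over time in wild type and 27.5% to 38.1% in PKBa-/-. These fits take the arrays of a pair as replicates. Quantile normalization gave 1 at time 6, and 1 and 2 at times 24 and 48 in PKBa-/- (20.7%, 8.75% and 10.7% of all tested genes). Array median centring and an offset of 1 each gave 1 at times 24 and 48 (18.6% and 20.5%, and 20.1% and 22.8%). No filter gave 1 at times 0 and 6 and 1 at time 24 in PKBa-/- (10.9%, 10.8% and 4.12%). The mean of all probe sets gave 11 on average, 2 at time 6, 1 at time 48, and 2, 1 and 2 at times 6, 24 and 48 in PKBa-/-. Of all tested genes, 17.7%, 24.4%, 19.4%, 6.93% and 8.59% passed in these comparisons by that mean. Quantile normalization gave 9 on average. The shares of all tested genes that passed on average in these fits were 65.2% with 36 arrays, 62.9% with the block, 73% with replicates 1 and 2 alone, 48.9% with the mean of all probe sets and 51% after quantile normalization. With 36 arrays the shares by time are given further above, and 21.7% passed the F test. Leaving out 1 array gave 5 to 7 on average, 0 to 1 at times 0 and 2, 0 at time 6, 0 to 3 at time 24 and 1 to 3 at time 48. It gave 0 over time in wild type, 1 at times 2 and 6, 0 to 1 at time 24 and 0 to 2 at time 48 in PKBa-/-, and 0 in the F test. Under the alternatives, 1336 values were computed for called differences and changes of named genes, and 0 of them changed sign while 38 missed the threshold. Of these, 10 were Rpl37a at time 24, 16 Rps18 at time 48, 1 Rps18 at time 24 and 6 Rps27l at time 48, results added after seeing the data. Of 2574 values for those that had not passed, 14 changed sign. For the difference on average these were Rps4x (-0.02 after quantile normalization, -0.014 with replicates 1 and 2 alone) and Rplp0 (0.005 after median centring, 0.052 with replicates 1 and 2 alone, 0.002 without wild type replicate 1 of time 6; leaving out 1 array gave -0.018 to 0.002). In wild type at time 48 they were Rpl35 (-0.013 by the mean of all probe sets, -0.049 with replicates 3 and 4 alone) and Rpl22 (0.058 by the mean of all probe sets). In PKBa-/- they were Rps18 at time 2 (0.018 by the mean of all probe sets), Rpl22 at time 48 (0.416 by that mean, 0.028 without replicate 4 of time 0; leaving out 1 array gave -0.254 to 0.028), and Rpl27a at time 24 (0.053 with replicates 1 and 2 alone, 0.055 without replicate 1 of time 24; leaving out 1 array gave -0.236 to 0.055) and time 48 (0.13 with replicates 1 and 2 alone). The cause of these changes was not tested. The relation to the chromosome and its alternatives were chosen after seeing the data.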
